A study of Mus musculus with 16 samples.

Results

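Mammals build and modify long-chain fatty acids with 2 families of membrane enzymes, the desaturases, which insert a double bond into the acyl chain, and the elongases, which carry out the condensing step that lengthens it. The 10 mouse genes described here encode the desaturases Fads1, Fads2, Fads3, Scd1 and Scd2 and the elongases Elovl1, Elovl2, Elovl5, Elovl6 and Elovl7. They were chosen by name, not by any measured value, and are 10 of the 21965 genes of the count table, all of them protein coding. They are the host's own enzymes for unsaturated fatty acids in mice that also carry fat-1, a C. elegans n3 fatty acid desaturase.

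The 16 libraries were RNA-seq of the terminal ileum of male mice on a C57BL/6 background, with 1 library per mouse. The mice were 8 to 10 weeks old when the diets began. WT littermates and heterozygous fat-1 mice, labelled Fat1+/- in the sample descriptions, received the Lieber-DeCarli liquid diet, either with ethanol that was raised in steps to 6% for the last 3 weeks (EtOH) or with the same calories from maltose dextrin (pair-fed, PF). The PF diet was given to 4 WT and 4 fat-1 mice and the EtOH diet to 3 WT and 5 fat-1 mice. The transgene is expressed in all tissues, and each library came from a flushed, frozen segment of about 1.5 cm. The label Fat1+/- does not stand for the mouse cadherin gene Fat1, and reads of the transgene were not analysed here, so that the genotype was not checked from the counts. The reads assigned to genes ranged from 8422645 to 11438539 per library. Values of single mice are CPM, the reads of a gene as a rate of the library's total after TMM adjustment. A gene is called different where edgeR's quasi-likelihood fit gave an adjusted p-value of 0.05 or less over all 13811 genes tested. In such bulk tissue, fewer cells of a type and less RNA per cell cannot be told apart.

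In the synthesis of polyunsaturated fatty acids (PUFAs), Fads2 introduces the first new double bond into the dietary precursors linoleic and alpha-linolenic acid, Elovl5 lengthens the product, and Fads1 desaturates it again, which yields arachidonic acid in the n6 series and eicosapentaenoic acid in the n3 series. Elovl2 acts on the longer intermediates on the way to docosahexaenoic acid. Both series compete for the same mammalian enzymes, and mammals have no enzyme that turns an n6 PUFA into an n3 PUFA, which is the step that fat-1 adds. The stearoyl-CoA desaturases Scd1 and Scd2 make monounsaturated fatty acids such as oleic acid from saturated ones. Elovl6 lengthens palmitic to stearic acid, and Elovl1 and Elovl7 lengthen saturated and other long chains.

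Of the 10 genes, 9 were abundant enough to be tested and 1, Elovl5, was called, in a comparison in which 37.4% of all genes were. It was 1.60-fold higher in fat-1 EtOH than in fat-1 PF mice and also higher in EtOH-fed than in PF mice averaged over both genotypes. The call in fat-1 mice was lost without fat-1 PF replicates 2 and 4 (log2 fold change 0.51, adjusted p = 0.0532). None of the 9 genes was called with EtOH in WT mice, between the genotypes on either diet, or in the interaction of genotype and diet. Scd2 had the largest fitted difference with diet in fat-1 mice among the 9 genes, and its groups did not overlap, but it did not pass the test.

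The bases upstream of Elovl5, the 1 gene called, and of Fads3, the other gene here with 2 CCAAT boxes, are shown because CCAAT is the core of the binding site of the factor NF-Y, which acts beside the sterol regulatory element-binding proteins at promoters of lipid genes. Both were read from the RefSeq promoter windows of GRCm38.p6, which run from 250 bases before to 50 bases after the start of transcription, and only bases before the start are printed, 5′ to 3′ on the strand of the gene. Capitals mark CCAAT or, where the box lies on the other strand, ATTGG.
Elovl5, chr9:77917245-77917363, + strand: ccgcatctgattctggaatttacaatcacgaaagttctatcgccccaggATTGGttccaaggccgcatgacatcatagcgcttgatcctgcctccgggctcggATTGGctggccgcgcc
Fads3, chr19:10041428-10041547, + strand: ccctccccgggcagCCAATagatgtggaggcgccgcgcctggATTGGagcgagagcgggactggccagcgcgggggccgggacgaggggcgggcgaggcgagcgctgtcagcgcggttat
The boxes of Elovl5 began 71 and 17 bases and those of Fads3 106 and 78 bases before the start. Windows were found for 7 of the 10 genes, and Elovl1 held 1 box in addition, while Fads2, Elovl2, Elovl6 and Elovl7 held none. On either strand, CCAAT is found in 37.4% of the 32851 promoter windows of this length, so that its presence in 3 of 7 genes is near that share. A sterol regulatory element, written TCACNCCAC, was searched on both strands and was in none of the 7 genes and in 1.24% of all windows. A match of letters does not show a site in use. The promoter windows of Fads1, Scd1 and Scd2 were not analysed here.

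The genes spanned a wide range of abundance. On the scale of CPM per kb of exon, which allows genes of different length to be compared, the mean level over the 16 libraries was 96.5 ± 62.4 (SD, n = 16) for Scd1, 81.3 ± 23.5 for Elovl1 and 57.7 ± 30.3 for Scd2. Below them came Elovl7 with 22.0 ± 4.77, Elovl6 with 17.6 ± 3.76, Fads2 with 13.7 ± 4.63 and Elovl5 with 13.2 ± 2.89 CPM per kb. The lowest were Fads1 with 5.71 ± 1.29, Fads3 with 3.44 ± 1.52 and Elovl2 with 0.0675 ± 0.0465 CPM per kb. The ranges of mean ± SD overlapped among Scd1, Elovl1 and Scd2, between Elovl7 and Elovl6, and between Fads2 and Elovl5. All genes were measured in the same 16 libraries, and their differences within a library were not tested. When the length of the longest transcript replaced that of all exons, Elovl1 came first and Scd1 second, and Elovl5 came before Fads2.

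The spread between mice also differed between the genes. The highest library exceeded the lowest 18.3-fold for Scd2, 6.66-fold for Scd1 and 6.21-fold for Fads3, but only 2.00-fold for Elovl6, 2.13-fold for Elovl5 and 2.32-fold for Elovl7. The biological coefficient of variation that edgeR estimated within groups was 0.575 for Scd1 and 0.562 for Scd2, and it was 0.153 for Elovl5, the lowest of the 9 genes. The precision of each comparison follows from it, and the intervals of Scd1 and Scd2 are the widest.

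**Figure D1:**
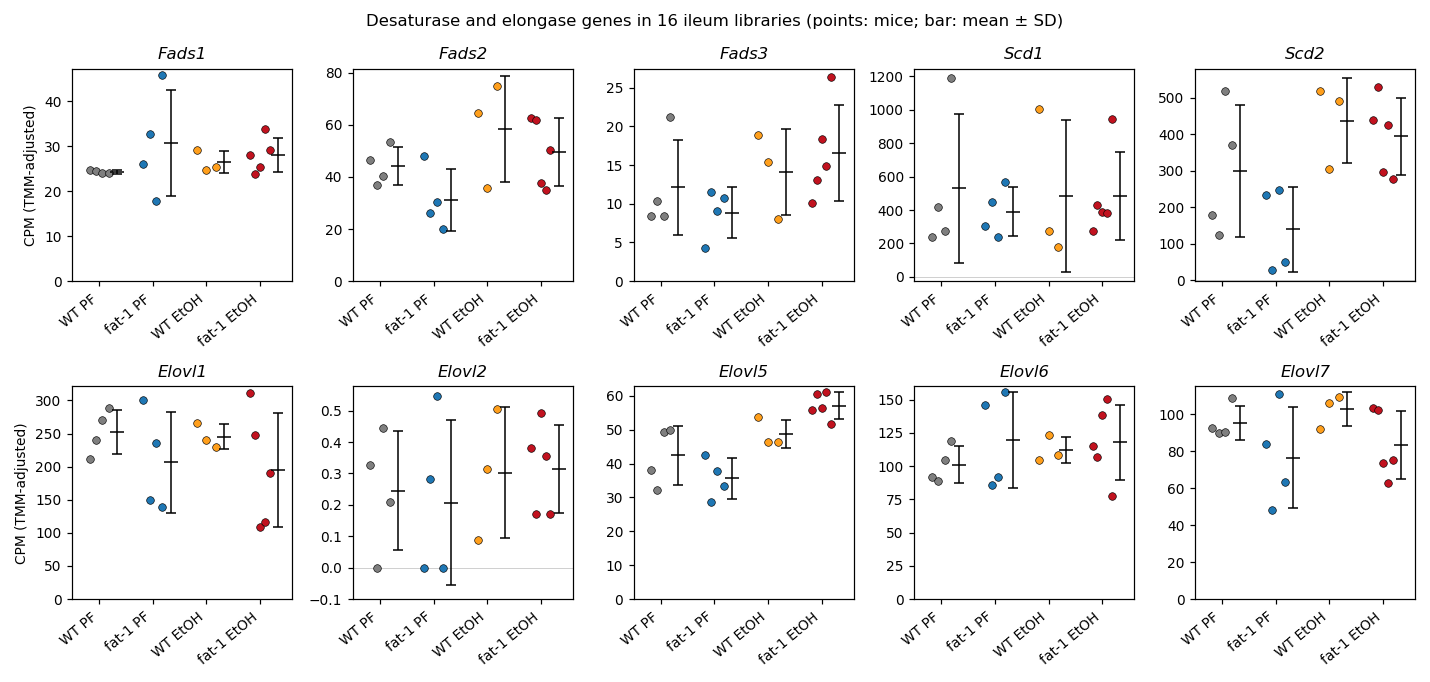
CPM of the 10 genes in each of the 16 libraries (points) by group, with the group mean and SD (bars) on linear axes. Elovl5 in the fat-1 EtOH mice lies between 51.7 and 61.1 CPM, above the 28.6 to 42.6 CPM of the fat-1 PF mice, and fat-1 PF replicates 2 and 4 are the lowest libraries for Scd2, at 28.9 and 51.8 CPM.

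Some libraries stood apart by the genes of their gut region. Summed over 6 ileal genes (Slc10a2, Fabp6, Fgf15, Slc51a, Slc51b and Nr1h4), the level was 2496 to 7026 CPM in WT PF, 439 to 6610 in fat-1 PF, 6696 to 7090 in WT EtOH and 1083 to 8305 in fat-1 EtOH mice. The ileal bile acid transporter Slc10a2 was at only 7.58 CPM in replicate 2 and 3.56 CPM in replicate 4 of the fat-1 PF mice and between 394 and 1382 CPM in all other libraries, and the ileal bile acid-binding protein Fabp6 was at 26.1 and 3.31 CPM in these 2 libraries. The same 2 libraries had the highest sums over 8 genes of the proximal small intestine, among them lactase (Lct) and the apolipoprotein Apoa4, 53327 and 51925 CPM. That sum did not overlap between the diets, with 1987 to 53327 CPM in PF and 20.4 to 463 CPM in EtOH-fed mice. The colonic carbonic anhydrase Car1 was at 11157 and 12208 CPM in fat-1 EtOH replicates 3 and 4 and at 4041 CPM in WT EtOH replicate 2. Of 7 genes of the large intestine, Hoxb13 was at 0 in 13 and Hoxd13 at 0 in 15 of the 16 libraries. Counts below are therefore also given without these 5 libraries. PF mice hold the library numbers 1 to 8 and EtOH-fed mice 9 to 16, and library order and diet cannot be told apart.

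The first step of PUFA synthesis was read from Fads2 (chromosome 19, 10062765 to 10101746, GRCm38, minus strand). Its level was 46.3, 36.8, 40.3 and 53.2 CPM in the 4 WT PF mice and 47.9, 26.2, 30.5 and 19.9 CPM in the 4 fat-1 PF mice. It was 64.4, 35.7 and 74.9 CPM in the 3 WT EtOH and 62.6, 62.0, 37.7, 34.8 and 50.3 CPM in the 5 fat-1 EtOH mice. The groups overlapped in every comparison, and the lowest values were those of fat-1 PF replicates 4 and 2. The log2 fold change between fat-1 EtOH and fat-1 PF mice was 0.67 (SE 0.27, 95% interval 0.08 to 1.25, adjusted p = 0.0668, edgeR), and that of EtOH averaged over genotypes was 0.53 (SE 0.20, 95% interval 0.10 to 0.97, adjusted p = 0.0522). Both missed the threshold. The same difference passed in 7 of 27 alternative settings for fat-1 mice and in 11 of 26 for the average, with a positive sign in all of them. Without WT EtOH replicate 2 and fat-1 EtOH replicates 3 and 4, it was 0.92 in fat-1 mice (adjusted p = 0.0154) and 0.79 averaged over genotypes (adjusted p = 0.00639). Without fat-1 PF replicates 2 and 4 it was 0.34 in fat-1 mice (adjusted p = 0.449), and without all 5 libraries it was 0.58 in fat-1 mice (adjusted p = 0.0855) and 0.62 averaged over genotypes (adjusted p = 0.00875). Across all 16 libraries, Fads2 was higher where the ileal sum was higher (Pearson's r = 0.76, adjusted permutation p = 0.0107, and Spearman's rho = 0.67, adjusted permutation p = 0.0511, on log2(CPM + 0.5)), and r was 0.48 without fat-1 PF replicates 2 and 4. Within PF mice this r was 0.77 (exact permutation p adjusted to 0.145) and within EtOH-fed mice 0.67 (0.263). With the sum over proliferating crypt genes, rho was 0.71 (adjusted permutation p = 0.0355) and r 0.42 (0.287) over 16 libraries. Within EtOH-fed mice r with the crypt sum was 0.90 (exact permutation p adjusted to 0.025, and 0.0719 for rho), and within PF mice 0.59 (0.336).

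Fads1, which catalyses the last desaturation on the way to arachidonic and eicosapentaenoic acid (chromosome 19, 10182888 to 10196877, plus strand), showed no such difference with diet by its fitted values. The 4 WT PF mice were at 24.8, 24.4, 24.0 and 24.0 CPM, with an SD of 0.391 CPM, and the 4 fat-1 PF mice at 26.2, 32.7, 17.9 and 45.9 CPM. The 3 WT EtOH mice were at 29.3, 24.7 and 25.5 CPM and the 5 fat-1 EtOH mice at 28.1, 23.8, 25.5, 33.8 and 29.2 CPM. The fat-1 PF mice thus held both the lowest and the highest value of all libraries, and no group stood apart. The log2 fold change between fat-1 EtOH and fat-1 PF mice was -0.13 (95% interval -0.54 to 0.28, adjusted p = 0.620), and that of the transgene on the PF diet 0.34 (95% interval -0.10 to 0.77, adjusted p = 0.530). As a ratio of levels per kb, Fads1 to Fads2 was 0.853 and 1.58 in fat-1 PF replicates 2 and 4 and between 0.233 and 0.665 in the other 14 libraries. The same 2 libraries are those with the lowest ileal sums, and their part in the ratio was not tested. By r, Fads1 itself was lower where the ileal sum was higher over the 16 libraries (r = -0.67, adjusted permutation p = 0.0285). By rho the relation did not pass (rho = -0.52, adjusted permutation p = 0.198), and r was -0.27 without these 2 libraries. Within PF mice r was -0.89 (exact permutation p adjusted to 0.0625) and within EtOH-fed mice -0.30 (0.669).

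Fads3, a desaturase that acts on the long-chain base of sphingolipids (chromosome 19, 10041569 to 10060110, plus strand), was the least abundant of the 3 Fads genes. Its level was 8.41, 10.4, 8.44 and 21.2 CPM in WT PF, 4.24, 11.5, 9.02 and 10.7 CPM in fat-1 PF, 18.9, 15.4 and 7.98 CPM in WT EtOH and 10.1, 13.1, 18.4, 14.9 and 26.3 CPM in fat-1 EtOH mice. All groups overlapped. The log2 fold change between fat-1 EtOH and fat-1 PF mice was 0.91 (SE 0.38, 95% interval 0.09 to 1.72, adjusted p = 0.0739) and passed in 4 of 27 alternative settings. In WT mice it was 0.22 (95% interval -0.68 to 1.11, adjusted p = 0.852). Over the 16 libraries Fads3 was higher where 6 adipocyte genes (Adipoq, Plin1, Cidec, Lep, Retn and Cfd) were higher (r = 0.73, adjusted permutation p = 0.0147, and rho = 0.80, adjusted permutation p = 0.0126), with r = 0.61 without WT EtOH replicate 3 and fat-1 EtOH replicate 5. Within the 8 EtOH-fed mice r was 0.97 (exact permutation p adjusted to 0.0125) and within the 8 PF mice 0.57 (0.365).

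Elovl5 (ENSMUSG00000032349, chromosome 9, 77917364 to 77984519, plus strand) lengthens the products of Fads2 and was the gene called. The 4 WT PF mice were at 38.0, 32.1, 49.4 and 50.0 CPM and the 4 fat-1 PF mice at 42.6, 28.6, 37.9 and 33.4 CPM. The 3 WT EtOH mice were at 53.6, 46.3 and 46.3 CPM and the 5 fat-1 EtOH mice at 55.7, 60.6, 56.3, 61.1 and 51.7 CPM. All 5 fat-1 EtOH mice were above all 4 fat-1 PF mice, while the WT groups overlapped. The means were 57.1 ± 3.90 CPM (SD, n = 5) with EtOH and 35.6 ± 5.99 CPM (SD, n = 4) with PF in fat-1 mice. The log2 fold change was 0.68 (SE 0.14, 95% interval 0.38 to 0.97), which is 1.60-fold (adjusted p = 0.0022, edgeR). By its p-value, Elovl5 ranked 1214 among the 13811 genes tested. In the same comparison 37.4% of all genes tested were called and 18.7% were called higher, and 1 of the 9 genes. With upper-quartile scaling 3906 of 5659 calls were higher, against 2578 of 5170 with TMM, and the median of all genes moved from 0.05 to 0.20, while Elovl5 was at 0.83. Permuting the mice between these groups gave an exact two-sided p = 0.0159 for the difference in mean log2(CPM + 0.5), the smallest that 5 against 4 mice allow (0.286 adjusted over the 36 such tests).

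In WT mice the log2 fold change of Elovl5 with EtOH was 0.20 (SE 0.15, 95% interval -0.13 to 0.53, adjusted p = 0.578), where 0.0796% of all genes were called. The difference between the responses of the genotypes was 0.48 (SE 0.21, 95% interval 0.04 to 0.92), with an unadjusted p-value of 0.0359 and an adjusted p-value of 0.595. In the interaction 0% of genes were called at the adjusted threshold in edgeR and 1141 had an unadjusted p-value under 0.05, and DESeq2 called 0 as well. A response of Elovl5 that is particular to fat-1 mice was therefore not shown. Averaged over the genotypes, EtOH-fed mice were higher by 0.44 on the log2 scale (SE 0.10, 95% interval 0.22 to 0.66, adjusted p = 0.00509), in a comparison in which 35.9% of all genes were called. Every fat-1 PF mouse was below every EtOH-fed mouse of either genotype, while WT PF replicates 3 and 4 were above WT EtOH replicates 2 and 3.

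The Elovl5 call in fat-1 mice rested in part on fat-1 PF replicates 2 and 4. Without them the log2 fold change was 0.51 (SE 0.16, adjusted p = 0.0532), and without all 5 libraries that stood apart by regional genes it was 0.49 (SE 0.18, adjusted p = 0.0964). The 2 fat-1 PF mice that remain then, at 42.6 and 37.9 CPM, were still below every EtOH-fed mouse of either genotype. Averaged over genotypes, the call held without the first 2 (0.36, adjusted p = 0.0318) and without all 5 libraries (0.37, adjusted p = 0.0458). In the other 25 of 27 settings the difference in fat-1 mice was called, with log2 fold changes between 0.60 and 0.83.

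**Figure D2:**
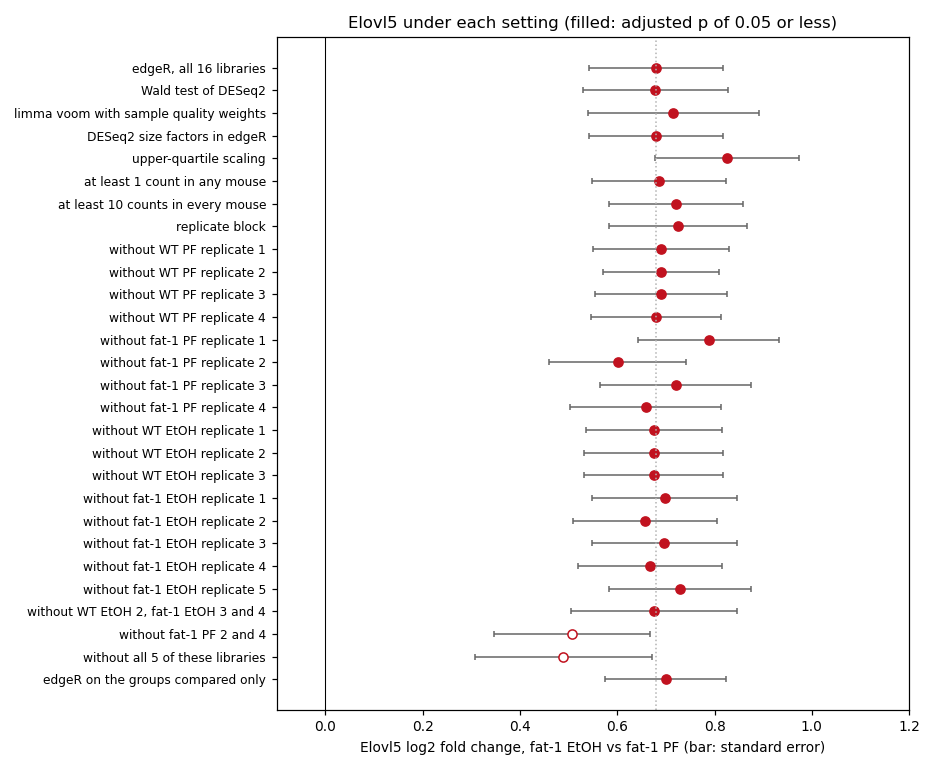
Log2 fold change of Elovl5 between fat-1 EtOH and fat-1 PF mice under each setting, with its standard error (bars); filled points passed an adjusted p-value of 0.05, and the dotted line marks the value from all 16 libraries, 0.68. Every value is above 0, and the 2 open points are those without fat-1 PF replicates 2 and 4 (0.51) and without all 5 libraries (0.49).

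The smooth muscle genes differed between the diets as well. The sum over 5 smooth muscle genes (Acta2, Myh11, Des, Actg2 and Cnn1, none of them at 0 in any library) was 866 to 1183 CPM in WT PF and 747 to 1079 CPM in fat-1 PF mice, and 1614 to 2162 CPM in WT EtOH and 1540 to 3265 CPM in fat-1 EtOH mice, so that it did not overlap between the diets. No correlation of Elovl5 with this sum over both diets is given for this reason. Within the 8 PF mice Pearson's r of Elovl5 with this sum was 0.52 (Spearman's rho 0.52), and within the 8 EtOH-fed mice r was 0.62 (rho 0.74). Neither relation passed after adjustment over the 126 relations computed, with exact permutation p adjusted to 0.426 for r and 0.486 for rho in PF mice and to 0.335 and 0.444 in EtOH-fed mice. With the 8 genes of the proximal small intestine, which were lower in EtOH-fed mice, r was -0.74 within PF (exact permutation p adjusted to 0.145) and -0.46 within EtOH-fed mice (0.532). The part of these cells or regions in the Elovl5 difference was not tested. The genes whose pattern over the 16 libraries was most like that of Elovl5 by Spearman's rho were Aph1b (rho = 0.96, r = 0.93), Nbeal2 (rho = 0.95, r = 0.87) and Epb41l1 (rho = 0.93, r = 0.90). This ranking is a description and did not hold the diets apart.

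Elovl2, the elongase of the longest PUFAs (chromosome 13, 41182381 to 41220405, minus strand), was at the limit of detection. It had 0 to 6 counts per library, or up to 0.547 CPM, in all groups, where 3 counts correspond to 0.246 to 0.421 CPM. It was removed by the filter on low counts, and a difference was not detectable at this depth.

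Elovl1, Elovl6 and Elovl7, which serve saturated, monounsaturated and very long chains, were not called in any comparison. For Elovl1 (chromosome 4, 118428093 to 118432953, plus strand), the level was 212, 239.6, 270.4 and 288 CPM in WT PF, 301, 149.9, 236 and 139.8 CPM in fat-1 PF, 266, 239.8 and 230.0 CPM in WT EtOH and 311, 248, 108, 117 and 190.1 CPM in fat-1 EtOH mice. Both fat-1 groups thus held the highest and the lowest values, and the low ones were fat-1 PF replicates 2 and 4 and fat-1 EtOH replicates 3 and 4, the libraries with little of the ileal genes. Over the 16 libraries Elovl1 followed the ileal sum (r = 0.79, adjusted permutation p = 0.0144, and rho = 0.74, adjusted permutation p = 0.0221), and r was 0.81 without fat-1 PF replicates 2 and 4. Within PF mice r was 0.93 (exact permutation p adjusted to 0.0762, and 0.29 for rho) and within EtOH-fed mice 0.96 (0.025, and 0.193 for rho). By r it was also related to the sum over proliferating crypt genes (r = 0.78, adjusted permutation p = 0.012) and over epithelial genes (r = 0.70, adjusted permutation p = 0.0285), while the adjusted permutation p for rho was 0.0669 and 0.216. Without fat-1 EtOH replicates 3 and 4, r was 0.37 with the crypt and 0.27 with the epithelial sum. Between fat-1 EtOH and fat-1 PF mice its log2 fold change was -0.08 (95% interval -0.71 to 0.55, adjusted p = 0.837).

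Elovl7 (chromosome 13, 108214404 to 108285683, plus strand) showed the same libraries low. It was at 92.6, 89.8, 90.7 and 109 CPM in WT PF, 83.7, 48.0, 111 and 63.6 CPM in fat-1 PF, 92.3, 106 and 109.6 CPM in WT EtOH and 104, 102, 73.8, 62.7 and 75.4 CPM in fat-1 EtOH mice. It too followed the ileal sum over the 16 libraries (r = 0.88, adjusted permutation p = 0.00252, and rho = 0.81, adjusted permutation p = 0.0126), with r = 0.77 without fat-1 PF replicates 2 and 4. Within PF mice r was 0.92 (exact permutation p adjusted to 0.0762) and within EtOH-fed mice 0.82 (0.115). Its log2 fold change in fat-1 mice was 0.12 (95% interval -0.31 to 0.56, adjusted p = 0.651).

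Elovl6 (chromosome 3, 129532355 to 129638495, plus strand) had the smallest spread from the lowest to the highest library. The level was 91.8, 89.0, 105 and 119 CPM in WT PF, 146, 85.5, 92.1 and 156 CPM in fat-1 PF, 105, 123 and 109 CPM in WT EtOH and 115, 107, 139, 151 and 77.8 CPM in fat-1 EtOH mice. No group stood apart, and the log2 fold change with EtOH was -0.02 in fat-1 mice (95% interval -0.46 to 0.41, adjusted p = 0.934) and 0.15 in WT mice (95% interval -0.34 to 0.64, adjusted p = 0.807).

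Scd1 (chromosome 19, 44394455 to 44407879, minus strand), the main stearoyl-CoA desaturase of liver and fat, was high in single mice of 3 groups. It was at 236, 419, 275 and 1189 CPM in WT PF, 305, 448, 238 and 566 CPM in fat-1 PF, 1007, 272 and 179 CPM in WT EtOH and 273, 428, 389, 383 and 946 CPM in fat-1 EtOH mice. The 3 highest, WT PF replicate 4, WT EtOH replicate 1 and fat-1 EtOH replicate 5, were also the 3 libraries with the most of the adipocyte genes, with sums of 377, 374 and 645 CPM. That sum was 154 to 377 CPM in WT PF, 149 to 315 in fat-1 PF, 122 to 374 in WT EtOH and 143 to 645 in fat-1 EtOH mice, and none of its 6 genes was at 0 in any library. Over the 16 libraries Scd1 followed it (r = 0.86, adjusted permutation p = 0.00063, and rho = 0.86, adjusted permutation p = 0.00378). Without WT EtOH replicate 3 and fat-1 EtOH replicate 5, r was 0.81. Within PF mice r was 0.90 (exact permutation p adjusted to 0.0625, and 0.225 for rho) and within EtOH-fed mice 0.86 (0.0977, and 0.391 for rho), so that neither passed after adjustment. No comparison called Scd1. Its log2 fold change in fat-1 mice was 0.31 (95% interval -0.91 to 1.54, adjusted p = 0.684), an interval that holds changes of either sign.

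Scd2 (chromosome 19, 44293674 to 44306864, plus strand) lies on the same chromosome as Scd1 and encodes a stearoyl-CoA desaturase of many tissues. No correlation of these paralogues was detected (r = -0.07, adjusted permutation p = 0.912, and rho = -0.07, adjusted permutation p = 0.93, over 16 libraries). Without fat-1 PF replicates 2 and 4, r was 0.11, and it was -0.13 within both PF and EtOH-fed mice. Scd2 was at 179.5, 125, 519 and 372 CPM in WT PF, 233, 28.9, 247 and 51.8 CPM in fat-1 PF, 518, 304 and 490.2 CPM in WT EtOH and 439, 530.3, 298, 426 and 278 CPM in fat-1 EtOH mice. Every fat-1 EtOH mouse was above every fat-1 PF mouse. The means were 394 ± 105 CPM (SD, n = 5) and 140.2 ± 116 CPM (SD, n = 4), and the log2 fold change was 1.49 (SE 0.58, 95% interval 0.26 to 2.72, adjusted p = 0.0545), just short of the threshold. Scd2 and Elovl5 were the 2 of 9 genes whose fat-1 groups did not overlap in this direction, as in 10.6% of all genes tested. The exact two-sided permutation p was 0.0159, again the smallest possible (0.286 adjusted over 36 tests).

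The Scd2 difference passed in 8 of 27 alternative settings, among them DESeq2 (adjusted p = 0.0153) and limma voom (2.38, adjusted p = 0.0192). Its size moved with 2 libraries. Without fat-1 PF replicates 2 and 4 it was 0.72 (SE 0.47, adjusted p = 0.289), and without all 5 libraries 0.81 (SE 0.55, adjusted p = 0.323). In WT mice the log2 fold change was 0.55 (95% interval -0.79 to 1.89, adjusted p = 0.731), and the interaction was 0.94 (95% interval -0.87 to 2.75, adjusted p = 0.702). Between the PF groups Scd2 was 1.09 lower on the log2 scale in fat-1 mice by its fitted value (log2 fold change -1.09, 95% interval -2.36 to 0.17, adjusted p = 0.469), and this difference was -0.33 without fat-1 PF replicates 2 and 4. Scd2 followed the ileal sum over the 16 libraries (r = 0.82, adjusted permutation p = 0.012, and rho = 0.70, adjusted permutation p = 0.0355), but r was 0.43 without these 2 libraries, so that the relation rests on them. As a share of Scd1 and Scd2 per kb, Scd2 made up 5.46% and 7.58% in fat-1 PF replicates 2 and 4 and 20.8% to 71.1% in the other 14 libraries.

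**Figure D3:**
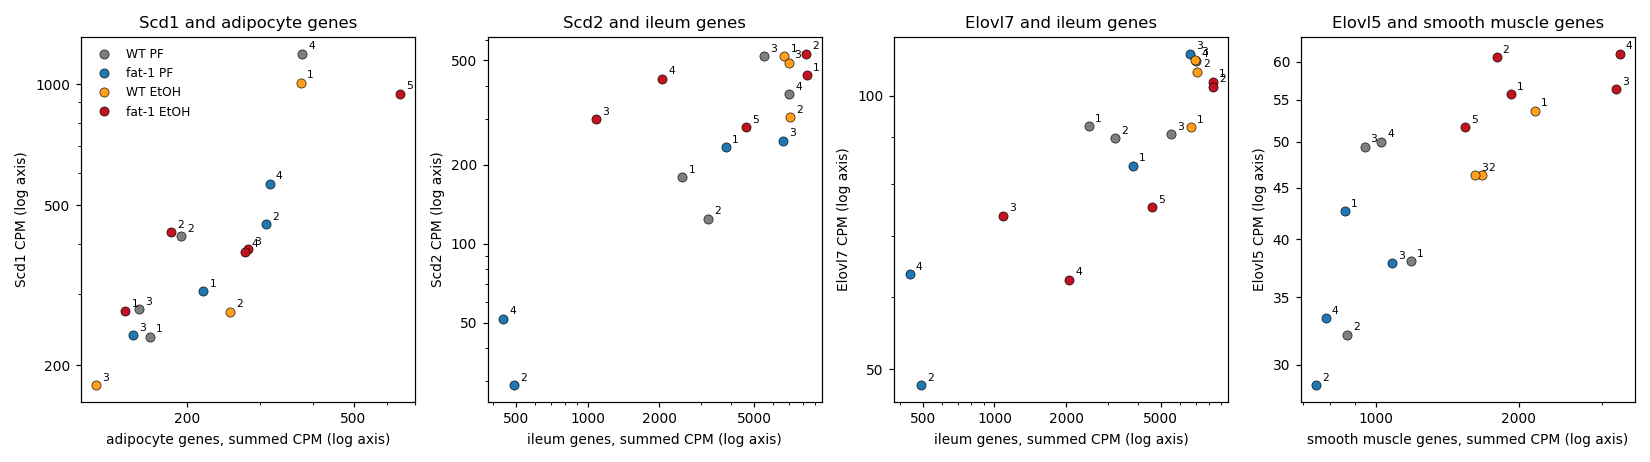
CPM of Scd1, Scd2, Elovl7 and Elovl5 (vertical, log axes) against the summed CPM of adipocyte, ileum or smooth muscle genes (horizontal, log axes), 1 point per library with its replicate number and group colour. Scd1 is highest in the 3 libraries with the largest adipocyte sums (374 to 645 CPM), and fat-1 PF replicates 2 and 4 are lowest for both the ileal sum and Scd2.

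Of the 36 pairs of the 9 genes, 3 passed an adjusted p-value of 0.05 by both r and rho. Elovl5 and Scd2 varied together most closely (r = 0.87, adjusted permutation p = 0.00063, and rho = 0.77, adjusted permutation p = 0.0175 over 16 libraries). Their r was 0.81 without fat-1 PF replicates 2 and 4. It was 0.91 within PF mice (exact permutation p adjusted to 0.0625) and 0.28 within EtOH-fed mice (0.683), so that among EtOH-fed mice the relation was not seen. Neither gene overlapped between the fat-1 EtOH and fat-1 PF groups, and the permutations over 16 libraries do not separate this diet difference from the relation. Fads3 and Scd1 also varied together (r = 0.72, adjusted permutation p = 0.0156, and rho = 0.73, adjusted permutation p = 0.0297), with r = 0.63 without WT PF replicate 4 and WT EtOH replicate 1, 0.77 within PF and 0.85 within EtOH-fed mice. Fads1 and Elovl7 varied in opposite directions (r = -0.72, adjusted permutation p = 0.0156, and rho = -0.70, adjusted permutation p = 0.0355), with r = -0.72 without fat-1 PF replicate 2 and fat-1 EtOH replicate 4, -0.78 within PF and -0.69 within EtOH-fed mice. By r alone, Fads2 and Scd2 (r = 0.75, adjusted permutation p = 0.0117), Elovl1 and Elovl7 (r = 0.75, adjusted permutation p = 0.0148) and Elovl7 and Scd2 (r = 0.68, adjusted permutation p = 0.043) also passed, while their adjusted permutation p for rho was 0.0576, 0.166 and 0.285. Without fat-1 PF replicates 2 and 4, r was 0.51 for Fads2 and Scd2 and only 0.12 for Elovl7 and Scd2. For Elovl1 and Elovl7 it was 0.70 without fat-1 PF replicate 2 and fat-1 EtOH replicate 4. Within either diet, none of these pairs passed after adjustment. All points share their libraries and their scaling.

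**Figure D4:**
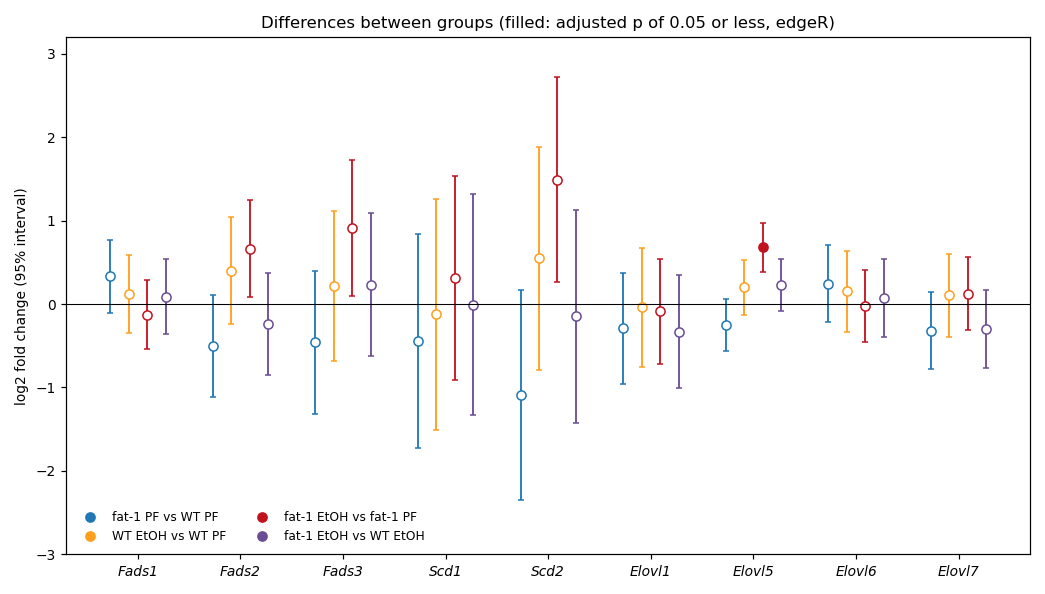
Log2 fold changes with 95% intervals (bars) of the 9 genes tested, in 4 comparisons of groups; filled points passed an adjusted p-value of 0.05. Only Elovl5 between fat-1 EtOH and fat-1 PF mice is filled, at 0.68, while the intervals of Fads2, Fads3 and Scd2 in that comparison also lie above 0.

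The transgene without ethanol was addressed by the comparison of fat-1 PF with WT PF mice, in which fat-1 PF replicates 2 and 4 also differ from the other PF mice in the ileal and proximal genes. Of the 9 genes, 0 were called and 0% of all genes were, while 1758 genes, none of the 9 among them, had an unadjusted edgeR p-value below 0.05 and DESeq2 called 189 genes. The median log2 fold change of the 9 genes was -0.32, against 0.02 over all genes tested. Fads2 was at -0.50 (95% interval -1.11 to 0.11, adjusted p = 0.492) and Elovl5 at -0.25 (95% interval -0.56 to 0.06, adjusted p = 0.501), and without these 2 libraries they were at -0.18 and -0.08. Between the genotypes on the EtOH diet, where 0.00724% of genes were called, the largest of the 9 differences by size was that of Elovl1, -0.33 (95% interval -1.01 to 0.35, adjusted p = 0.766), and Elovl5 was at 0.23 (95% interval -0.09 to 0.54, adjusted p = 0.757). Averaged over both diets, 0.00724% of genes were called between the genotypes and none of the 9, with Elovl5 at -0.01 (95% interval -0.23 to 0.21) and Fads2 at -0.37 (95% interval -0.80 to 0.06, adjusted p = 0.542). In both of these comparisons 1 gene of 13811 was called. In WT mice, EtOH gave a median log2 fold change of 0.15 over the 9 genes, against 0.01 over all genes, and in fat-1 mice 0.31 against 0.05. The fat-1 EtOH and fat-1 PF groups enter several of these comparisons, so that they are not independent of each other.

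Genes that work beside these enzymes were counted in 7 lists of 51 genes, of which 47 were tested. In fat-1 EtOH against fat-1 PF mice 5 were called higher and 17 lower, which is 22 of 47 where 37.4% of all genes were called. In WT mice and between the genotypes none was called. Without fat-1 PF replicates 2 and 4, 1 was called higher and 8 lower, where 1965 of all 14100 genes tested were called. Without WT EtOH replicate 2 and fat-1 EtOH replicates 3 and 4, 3 of 46 were higher and 15 lower (4096 of all 13778 genes called), and without all 5 libraries 1 of 46 was higher and 12 lower (1626 of all 13716 genes called). The elongation cycle, in which Hsd17b12, the Hacd dehydratases and Tecr complete each round that an elongase starts, had 0 of 6 called, with a median log2 fold change of -0.01. Hacd4 was at 0.52 (adjusted p = 0.101) and the other 5 between -0.21 and 0.01.

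Most genes of the electron transfer list, which holds cytochrome b5 and cytochrome b5 reductase genes, were lower with EtOH in fat-1 mice. Which of them feed the desaturases here was not tested. Of 5 tested, 4 were called lower and none higher, where 18.8% of all genes were called lower, with Cyb5r3, a cytochrome b5 reductase, at -2.52 (SE 0.35, adjusted p = 0.000312), cytochrome b5 itself, Cyb5a, at -1.57 (SE 0.19, adjusted p = 0.000247) and its mitochondrial counterpart Cyb5b at -1.27 (SE 0.20, adjusted p = 0.00053). Cyb5r3 was at 504 ± 316 CPM (SD, n = 4) with PF and 87.9 ± 5.89 CPM (SD, n = 5) with EtOH in fat-1 mice. The PF values were 911 CPM in replicate 2 and 597 CPM in replicate 4, against 270 and 239 CPM in the other 2 mice, and without all 5 libraries its log2 fold change was -1.58 (adjusted p = 0.0161). The fifth gene, Cyb5r1, was at 0.04 (adjusted p = 0.824), and without fat-1 PF replicates 2 and 4, 3 of the 5 were called lower. In WT mice none of the 5 was called, with a median of -0.46.

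Of the 8 genes that supply new fatty acids, 3 were called higher and 1 lower, where 18.7% of all genes were called higher and 18.8% lower. Acly, which makes cytosolic acetyl-CoA, was at 1.16 (SE 0.29, adjusted p = 0.00658) and Acaca, the acetyl-CoA carboxylase of synthesis, at 1.00 (SE 0.27, adjusted p = 0.0105). Acacb, the carboxylase that restrains mitochondrial oxidation, was at 2.51 (SE 0.75, adjusted p = 0.0178), and its level was 78.5 and 78.0 CPM in fat-1 EtOH replicates 3 and 4 and 6.37 to 14.3 CPM in the other 3. Without those libraries and WT EtOH replicate 2 it was at 0.52 (adjusted p = 0.305). The citrate carrier Slc25a1 was lower, at -0.99 (SE 0.14, adjusted p = 0.000325). The fatty acid synthase gene Fasn was at 0.93 (SE 0.45, adjusted p = 0.118). Without fat-1 PF replicates 2 and 4, Acly (1.04, adjusted p = 0.0801) and Acaca (0.96, adjusted p = 0.0875) did not pass.

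Of 10 regulators of these genes, 4 were called lower and none higher, which is near the 37.4% of all genes called in either direction, while 18.8% were called lower. The carbohydrate response factor Mlxipl was at -1.43 (SE 0.29, adjusted p = 0.00229), the liver X receptor Nr1h3 at -1.23 (SE 0.27, adjusted p = 0.00339) and Srebf1, which drives the transcription of lipogenic and desaturase genes, at -0.91 (SE 0.21, adjusted p = 0.00462). Srebf1 was at 102, 179 (replicate 2), 85.3 and 205 CPM (replicate 4) in the fat-1 PF mice and at 66.3 to 80.7 CPM in the fat-1 EtOH mice, and without fat-1 PF replicates 2 and 4 it was at -0.29 (adjusted p = 0.156). Without these 2 libraries 0 of the 10 regulators were called, with Nr1h3 at -1.08 (adjusted p = 0.0551) and Mlxipl at -0.85 (adjusted p = 0.0763). Without all 5 libraries 1 was called, Nr1h3 (-0.69, adjusted p = 0.0243).

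Of 6 genes of the peroxisomal shortening that completes docosahexaenoic acid, 4 were called lower, where 18.8% of all genes were, among them the thiolase gene Scp2 at -1.44 (SE 0.19, adjusted p = 0.000254) and the multifunctional enzyme Hsd17b4 at -0.69 (SE 0.24, adjusted p = 0.0335). Without fat-1 PF replicates 2 and 4, 2 of the 6 were called lower, Scp2 among them (-1.07, adjusted p = 0.00788), and Hsd17b4 was at -0.40 (adjusted p = 0.311). Without all 5 libraries, 5 were. Of 8 genes that activate PUFAs or place them in phospholipids, 4 were lower and 1 higher, again where 18.8% of all genes were lower and 18.7% higher. The acyl-CoA synthetase Acsl4, which prefers arachidonic acid, was higher, with a log2 fold change of 1.10 (SE 0.24, adjusted p = 0.0032), and remained called without all 5 libraries (1.03, adjusted p = 0.0348). Acsl5, an acyl-CoA synthetase of enterocytes, was at -2.57 (SE 0.52, adjusted p = 0.00219), the acyltransferase Agpat3 at -1.76 (SE 0.34, adjusted p = 0.00172) and Lpcat3, which inserts PUFAs into phospholipids, at -0.99 (SE 0.17, adjusted p = 0.00083). Among fat-1 PF mice, Agpat3 was at 261 CPM in replicate 2 and 245 CPM in replicate 4, against 113 and 59.9 CPM in the other 2 mice, and without replicates 2 and 4 it was at -0.79 (adjusted p = 0.062). The list then had 2 genes called lower, Acsl5 and Lpcat3. Of 4 further family genes tested, Elovl4 was called higher, at 0.0855 to 1.80 CPM in fat-1 EtOH and 0 to 0.140 CPM in fat-1 PF mice, levels too low for a fold to be given. The 2 highest values, 1.80 and 0.981 CPM, were those of fat-1 EtOH replicates 3 and 4. Elovl4 was not called without fat-1 PF replicates 2 and 4 (adjusted p = 0.102) and was below the filter on low counts without fat-1 EtOH replicates 3 and 4 and WT EtOH replicate 2.

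**Figure D5:**
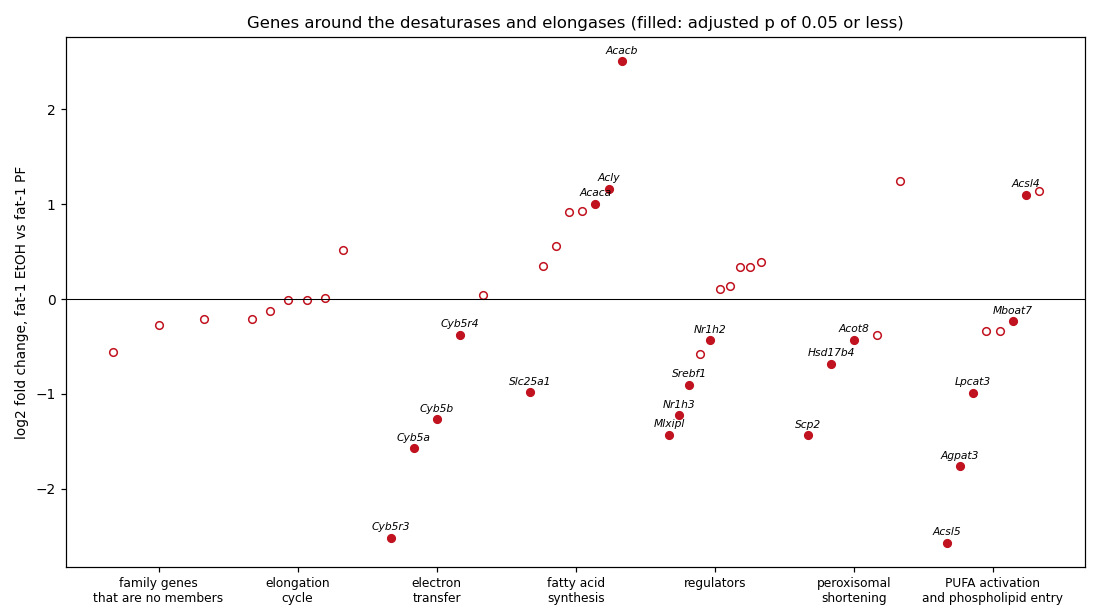
Log2 fold change between fat-1 EtOH and fat-1 PF mice of tested genes in 7 lists around the desaturases and elongases, without Elovl4, for which no fold is given, and 1 gene not reported here; filled points passed an adjusted p-value of 0.05. None of the 6 elongation cycle genes is filled, and 4 of 5 electron transfer genes are filled and lower, down to -2.52 for Cyb5r3.

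Few of the reads of these genes can come from copies. Of all stretches of 75 bases in the transcripts of Scd1, 3.24% also occur in another gene, Scd2 among them, and the share was 1.80% for Scd2, 2.28% for Elovl6 and 0% for the other 7 genes. The exons of Elovl1 overlap those of Cdc20 on the other strand by 53 bases, and whether the counting used the strand is not given in the sources used here.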

How the data were processed

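The authors aligned paired TruSeq stranded mRNA reads to mm10 with tophat2 and deposited raw htseq read counts per gene, 1 column per mouse. The submitters' processing notes also name FastQC 0.10.1, Cufflinks and bcl2fastq. The counting settings are not given in the sources used here. Of 21965 genes, 4158 had no count in any library. Ensembl IDs were paired with symbols and exons through GENCODE M21, which lacked 26 of them. The counts were fitted by group over all 16 libraries with edgeR 4.0.16 in R 4.3.3 (quasi-likelihood test, TMM scaling, filterByExpr, robust dispersion), with Benjamini-Hochberg adjustment over the 13811 genes kept. Relations between libraries used 100000 random orders, or all 40320 orders of 8 libraries, adjusted over 126 relations. The random orders of all 16 libraries took no account of diet or genotype. Alternatives were DESeq2 1.42.0, limma 3.58.1 (voom), other scalings and filters, a replicate block and fits without single or several libraries. The edgeR fit was tested on counts simulated for the comparison of fat-1 EtOH with fat-1 PF mice. No simulated data were used for the alternatives, the exact tests or the relations. All 10 genes are named, with the up to 3 called genes of largest change per list and direction, 3 genes most like Elovl5 and markers on which a result turns. Of the genes this rule selects, 1 is not reported here. Fasn, Hacd4 and the markers with values were named after their values were seen. The genes, the lists and the libraries left out were chosen with earlier results of these data known. Each library is 1 mouse.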

Additional observations from a re-analysis of the deposited data

Results flagged for a closer look

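In 3 of the 27 groups of 4 or 5 mice examined, 1 mouse lay farther from its neighbour than Dixon's 95% limit for the range of the group. Chance alone gives about 1 such group in 20. Fads3 was at 21.2 CPM in WT PF replicate 4, against 8.41 to 10.4 CPM in the other 3 mice of the group. Elovl7 was at 109 CPM in the same mouse, against 89.8 to 92.6 CPM. Scd1 was at 946 CPM in fat-1 EtOH replicate 5, against 273 to 428 CPM in the other 4.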

How the results depend on the processing

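Between fat-1 EtOH and fat-1 PF mice, 1 of the 9 genes was called, and the count was 4 with DESeq2 and with upper-quartile scaling (Fads2, Fads3, Elovl5 and Scd2), 3 with limma voom (Fads2, Elovl5 and Scd2), and 2 with a minimum of 10 counts in every mouse, with the replicate block (both Elovl5 and Scd2) and without WT EtOH replicate 2 and fat-1 EtOH replicates 3 and 4 (Fads2 and Elovl5). Over all genes, DESeq2 called 5556, upper-quartile scaling 5659 and limma voom 3697 of 13811 in this comparison, the minimum of 10 counts 4519 of 11675, the replicate block 4748 of 13811 and the fit without these 3 libraries 4096 of 13778. The count for the 9 genes was 0 without fat-1 PF replicates 2 and 4 and 0 without all 5 libraries, a setting chosen after seeing the data. Leaving out single mice gave 1 to 3, where 3928 to 5430 of all genes were called, and Elovl5 was called each time (0.60 to 0.79). Scd2 was also called without WT PF replicate 2 or fat-1 PF replicate 1 or 3, Fads2 without fat-1 PF replicate 1, WT EtOH replicate 2 or fat-1 EtOH replicate 4, and Fads3 without WT PF replicate 4 or fat-1 EtOH replicate 1. Averaged over genotypes, the count was 1, and it was 3 with DESeq2 and limma voom, 2 with upper-quartile scaling, with the minimum of 10 counts, without WT EtOH replicate 2 and fat-1 EtOH replicates 3 and 4 and without all 5 libraries, and 1 to 3 without single mice, where 3373 to 5864 of all genes were called over the alternatives. Elovl5 was called in all 26 alternatives. In the other 5 comparisons 0 of the 9 genes were called in every alternative, and no named difference with a call changed its sign. The causes were not tested.

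Over all genes, the 5170 calls in fat-1 mice fell to 1965 without fat-1 PF replicates 2 and 4, 1626 without all 5 libraries and 3086 with only these groups fitted. The 11 calls in WT mice ranged from 0 to 2853 (limma voom), with 1103 when only these groups were fitted, 257 with DESeq2 and 66 without WT PF replicate 4. The 0 calls between the PF groups became 189 with DESeq2, 30 with limma voom, 98 without fat-1 PF replicate 1 and 114 without fat-1 PF replicate 3. The 1 call between the EtOH groups was 5 with DESeq2. Mice with the same replicate number did not deviate together (mean r = -0.02 over 21 pairs, against 0.01 over 74 other pairs), so that the replicate block does not stand for a pairing. Depth limited Elovl2, with at most 6 counts per library.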
